A study of Homo sapiens with 6 samples.

Results

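The PGC-1 family and the factors it works with were described in Ras-activated fibroblasts with and without the long noncoding RNA sin-lncRNA. The genes were chosen by name: 3 coactivators (PPARGC1A, PPARGC1B and PPRC1), 3 nuclear factors (ESRRA, NRF1 and GABPA) and 4 factors that transcribe the mitochondrial genome (TFAM, TFB1M, TFB2M and POLRMT). All 10 were among the 57819 genes of the deposited table, and all 10 were among the 19048 genes with a mean of at least 10 normalised reads, which were tested.

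The cells were IMR90 ER:Ras, a human lung fibroblast line whose oncogenic Ras is joined to the hormone-binding part of the estrogen receptor, and all 6 libraries came from cells given 200 nM of 4-hydroxytamoxifen (4OHT) for 3 days, which switches Ras on. One group (3 libraries) had a scrambled control siRNA, called scramble here, and the other (3 libraries) had sin-lncRNA knocked down by siRNA, called knockdown. The labels name it si1, and whether it was a single siRNA or several is not stated. The labels do not say whether replicates were separate cultures, so p-values measure the spread between these libraries, which may be technical. The comparison addressed what depletion of the lncRNA changes in 4OHT-treated cells, which the study calls senescent. The order of siRNA and 4OHT is not stated in the labels, and no cells without 4OHT were part of the comparison.

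PGC-1 coactivators have no DNA-binding domain. They are brought to promoters by transcription factors, among them the estrogen-related receptors, NRF1 and GABP, and so raise the transcription of nuclear genes for respiratory chain subunits and for mitochondrial maintenance. Some of those nuclear genes encode the proteins that transcribe mitochondrial DNA: the polymerase POLRMT, the DNA-packing and bending factor TFAM and the initiation factor TFB2M.

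Reads in genes ranged from 30271192 to 50913672 in the scramble libraries and from 22117324 to 27882280 in the knockdown libraries, so depth and group cannot be told apart. The targeted lncRNA, read first as a check of the labels, fell from 4.17 ± 0.52 to 0.556 ± 0.076 RPM, the reads of a gene per 1000000 reads of effective library size (mean ± SD, n = 3). Fibroblast markers were present, with 12 of 12 above the read minimum and a summed level of 17490 to 19530 RPM in scramble and 13730 to 14820 RPM in knockdown libraries. Of these 12, 5 rose (COL3A1, PDGFRA, THY1, LUM and FAP) and 5 fell (COL1A1, COL1A2, VIM, PDGFRB and DCN), with a median log2 fold change of 0.05. Of 7 immune markers 0 reached the minimum, and their sum was 0.1998 to 0.3179 RPM in scramble and 0.3415 to 0.6412 RPM in knockdown libraries. The 9 epithelial markers (5 above the minimum, KRT5 and SCGB1A1 at 0 reads throughout) summed to 32.5 to 35.4 RPM in scramble and 31.4 to 34.1 RPM in knockdown libraries, and the 5 endothelial markers found (2 above it) to 7.059 to 7.959 and 7.979 to 8.837 RPM. Of the 5 epithelial markers above the minimum, KRT18 rose (log2 fold change 0.35) and KRT19 (-1.31), CLDN4 (-0.58) and KRT8 (-0.38) fell. EPCAM did not pass the test. The fibroblast sum was lower, and the immune and endothelial sums were higher, in every knockdown library than in every scramble library. Immune markers had at most 9 reads in a library (CD14), and the endothelial groups came as close as 7.959 and 7.979 RPM. The part of these sums in the results was not tested.

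Among the 10 genes, PPARGC1B and TFB1M fell on knockdown, GABPA and TFAM rose, and the other 6 did not pass the test. PPARGC1B moved most, to 62.2% of its scramble level, while the other 3 shifted by 14 to 22%. Of all tested genes 41.0% were called (limma, Benjamini-Hochberg adjusted p under 0.05), 17.5% higher and 23.5% lower, so 4 of 10 is a share near the background and is not a result about the family as a whole. The median log2 fold change was -0.05 over the 10 genes and -0.04 over all tested genes. The libraries of the groups did not overlap for 5 of the 10 genes, against 51.1% of all tested genes (28.3% with all knockdown libraries lower, 22.8% with all higher). In bulk RNA a change in the number of cells that express a gene and a change in RNA per cell cannot be told apart.

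**Figure D1:**
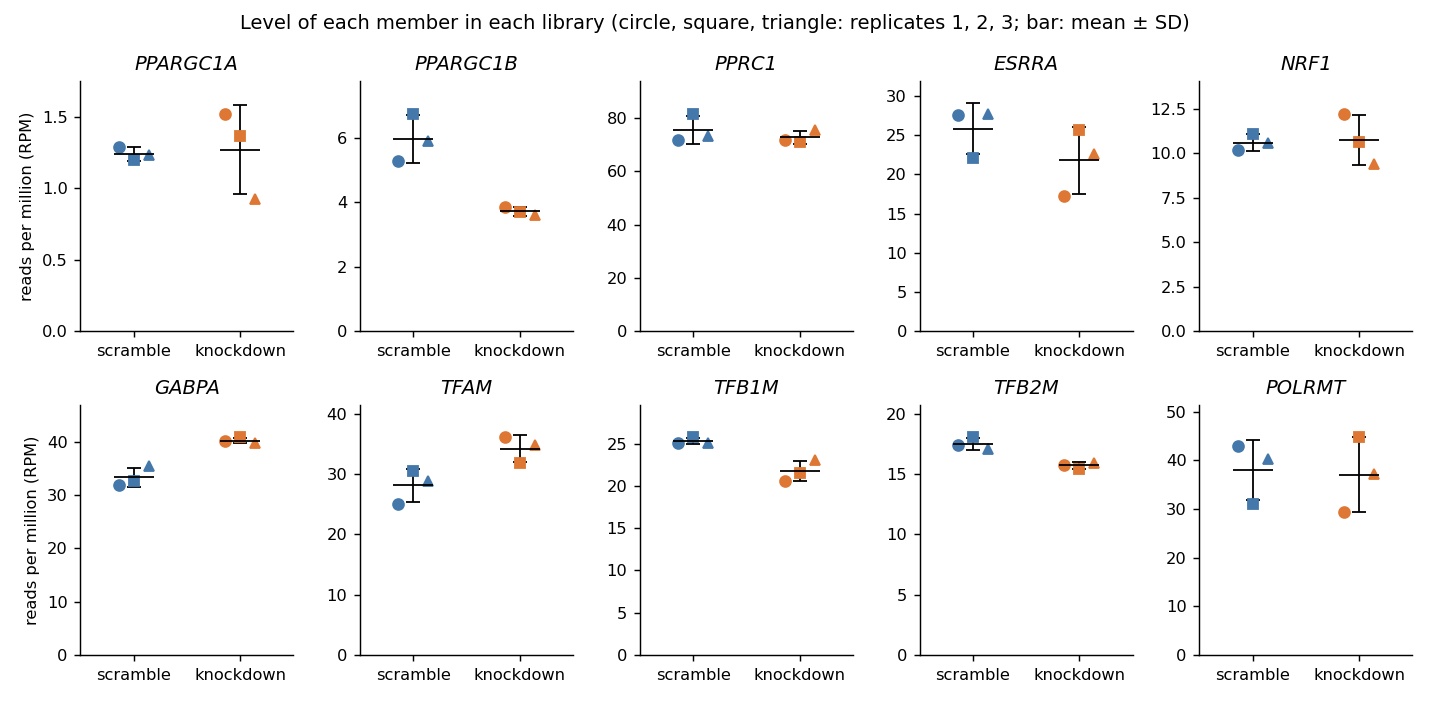
Level of each of the 10 genes in RPM (vertical axis, from 0) in the 3 scramble (blue) and 3 knockdown (orange) libraries, with the mean and SD as bars. The groups are apart for PPARGC1B, GABPA, TFAM, TFB1M and TFB2M, and mixed for the other 5.

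The levels per gene length put the coactivators at both ends of the order. Per kb of annotated exon, PPRC1 was the highest in scramble libraries at 12.4 ± 0.9 RPM per kb, followed by TFB2M (9.48 ± 0.27), TFB1M (9.24 ± 0.14), ESRRA (8.52 ± 1.07), POLRMT (7.43 ± 1.22), GABPA (6.14 ± 0.34) and TFAM (5.02 ± 0.50). NRF1 stood at 2.57 ± 0.11, PPARGC1B at 0.464 ± 0.057 and PPARGC1A at 0.114 ± 0.004 RPM per kb (SD, n = 3). Neighbours from TFB2M down to GABPA overlapped in their scramble libraries, whereas PPRC1 was apart from TFB2M, and each of TFAM, NRF1, PPARGC1B and PPARGC1A was apart from the gene above it. In knockdown libraries PPRC1 (11.9 ± 0.4) remained first and PPARGC1A (0.117 ± 0.029) last, and GABPA took place 4 (7.41 ± 0.10), above POLRMT, ESRRA and TFAM. GABPA overlapped POLRMT, POLRMT overlapped ESRRA and ESRRA overlapped TFAM in the knockdown libraries. The length used matters for TFB1M: divided by its longest transcript (1424 bases) in place of all exons (2736 bases), its scramble level was 17.8 ± 0.3 RPM per kb, above PPRC1 at 14.2 ± 1.0.

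PPARGC1B encodes PGC-1 beta, the coactivator most tied to basal mitochondrial content and to lipid genes in several tissues. Its gene (ENSG00000155846.12) spans bases 149109861 to 149234585 of chromosome 5 (plus strand) in hg19, the build in the submitters' processing notes. Levels were 5.286, 6.76 and 5.901 RPM in scramble replicates 1, 2 and 3, and 3.855, 3.714 and 3.598 RPM in knockdown replicates 1, 2 and 3. Each knockdown library was below each scramble library, and the knockdown libraries lay closer to each other than the scramble libraries did. The means were 5.98 ± 0.74 and 3.72 ± 0.13 RPM (SD, n = 3). On the log2 scale PPARGC1B changed by -0.67 (SE 0.11, 95% interval -0.93 to -0.42; limma, Benjamini-Hochberg adjusted p = 0.000855). These values rest on 86 to 297 reads per library. PPARGC1B was called in all 21 other fits, at log2 fold changes from -0.78 to -0.58. The microRNA gene MIR378A, which sits inside PPARGC1B, had no reads in any library. These are polyA libraries, so that does not show that the microRNA was absent.

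PPARGC1A encodes PGC-1 alpha, the inducible founding member, which rises with cold, fasting and exercise in brown fat, liver and muscle. It was scarce in these fibroblasts: 1.29, 1.20 and 1.23 RPM in scramble and 1.52, 1.37 and 0.926 RPM in knockdown libraries. Of the knockdown libraries 2 were above the scramble libraries and the other was below them. PPARGC1A differed by 0.01 on the log2 scale (SE 0.21, 95% interval -0.45 to 0.48; limma adjusted p = 0.968), on 26 to 62 reads per library. At this depth the interval includes changes as large as a log2 fold change of -0.45 or 0.48, so the result does not show that PPARGC1A was unaffected.

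PPRC1 encodes the PGC-1-related coactivator PRC, which is known as an early response gene to serum in cultured fibroblasts. It was the most abundant of the 10 per library, with 71.6, 81.6 and 73.1 RPM in scramble and 71.6, 71.0 and 75.5 RPM in knockdown libraries. The groups overlapped, and scramble replicate 2 was the single highest library. The difference on the log2 scale was -0.05 (SE 0.06, 95% interval -0.18 to 0.07; limma adjusted p = 0.508). PPRC1 had 1598 to 3681 reads per library.

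Differences taken within a library show how the relatives moved against each other, free of library scaling. PPARGC1B exceeded PPARGC1A by 2.02, 2.48 and 2.25 log2 units in scramble and by 1.33, 1.43 and 1.94 in knockdown libraries, uncorrected for gene length. PPRC1 exceeded PPARGC1B by 3.75, 3.59 and 3.63 log2 units in scramble and by 4.21, 4.25 and 4.38 in knockdown libraries. In both pairs the groups did not overlap, and the shift between them was -0.69 and 0.62 log2 units. The exact permutation test (two-sided) gave p = 0.1 for each, the smallest that 3 libraries against 3 allow, and 0.2 after Benjamini-Hochberg adjustment over the 6 pairs examined. This exact test therefore cannot fall below 0.05 with these group sizes.

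**Figure D2:**
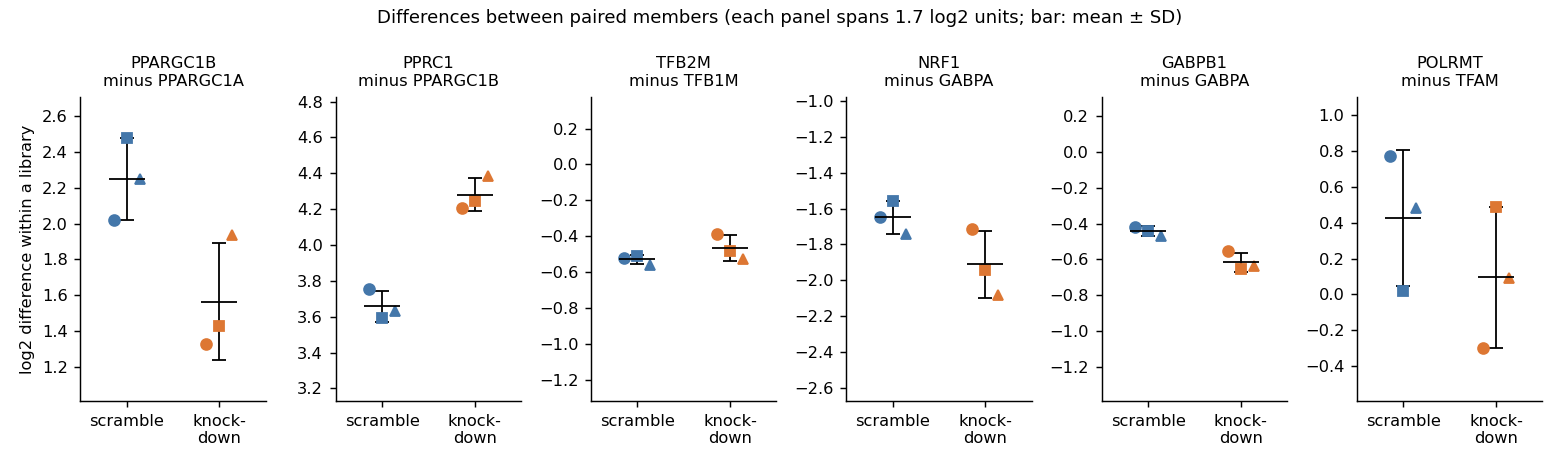
Difference in log2 level between paired genes of one library (vertical axis, log2 units) in scramble (blue) and knockdown (orange) libraries, with mean and SD as bars. The groups are apart for PPARGC1B minus PPARGC1A, PPRC1 minus PPARGC1B and GABPB1 minus GABPA, and overlap for the other 3 pairs.

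Of the nuclear factors that recruit these coactivators, GABPA rose, and NRF1 and ESRRA did not pass the test. GABPA is the DNA-binding subunit of GABP (also called nuclear respiratory factor 2), an ETS-family factor. It was at 31.9, 32.6 and 35.4 RPM in scramble and 40.1, 40.9 and 39.8 RPM in knockdown libraries. Each knockdown library was above each scramble library. The log2 fold change of GABPA was 0.27 (SE 0.06, 95% interval 0.15 to 0.40; limma adjusted p = 0.0026), and it was called in all 21 other fits, between 0.19 after a GC and length correction and 0.32. GABPA overlaps ATP5J on the opposite strand over 1104 bases, and the strand setting of the counting is not given in the sources used here, so a part of its reads is uncertain. ATP5J itself had a log2 fold change of -0.03 (limma adjusted p = 0.602).

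GABP is active when GABPA is bound to a beta subunit, which carries the transactivation domain. GABPB1 was at 23.9, 24.0 and 25.5 RPM in scramble and 27.3, 25.9 and 25.6 RPM in knockdown libraries, and did not pass the test (log2 fold change 0.10; limma adjusted p = 0.193). GABPB2 was at 6.46 ± 0.38 and 6.07 ± 0.27 RPM (SD, n = 3; limma adjusted p = 0.486). Within libraries, GABPB1 lay below GABPA by 0.42, 0.44 and 0.47 log2 units in scramble and by 0.56, 0.66 and 0.64 in knockdown libraries. The groups did not overlap, and the gap was wider in knockdowns by 0.17 log2 units (exact permutation p = 0.1, adjusted p = 0.2).

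NRF1 is a homodimeric activator of many genes for respiratory chain subunits and mitochondrial maintenance. It was at 10.2, 11.1 and 10.6 RPM in scramble and 12.2, 10.6 and 9.40 RPM in knockdown libraries. Knockdown libraries lay on both sides of the scramble libraries and spread more widely. NRF1 differed by 0.01 on the log2 scale (SE 0.10, 95% interval -0.21 to 0.23; limma adjusted p = 0.935). NRF1 minus GABPA, within libraries, was -1.65 ± 0.09 in scramble and -1.91 ± 0.19 in knockdown (SD, n = 3), with overlap between the groups (exact permutation p = 0.2, adjusted p = 0.3).

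ESRRA encodes the orphan receptor ERR alpha, a main partner of the PGC-1 proteins at energy metabolism genes. It was at 27.6, 22.1 and 27.7 RPM in scramble and 17.2, 25.6 and 22.6 RPM in knockdown libraries. The groups overlapped: knockdown replicate 2 was above scramble replicate 2. For ESRRA the log2 fold change was -0.25 (SE 0.13, 95% interval -0.55 to 0.04; limma adjusted p = 0.152). The call turned on 2 libraries: without scramble replicate 2 the log2 fold change was -0.36 (adjusted p = 0.0336), and without knockdown replicate 2 it was -0.38 (adjusted p = 0.0424). Its last bases overlap TRMT112, a more abundant gene on the opposite strand (log2 fold change -0.00395).

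The factors of mitochondrial transcription did not move as a block: TFAM rose, TFB1M fell, and TFB2M and POLRMT did not pass the test. TFAM coats mitochondrial DNA and bends it at promoters. It was at 25.1, 30.5 and 28.8 RPM in scramble and 36.1, 31.9 and 34.8 RPM in knockdown libraries. The groups did not overlap, with scramble replicate 2 and knockdown replicate 2 closest to each other. The log2 fold change of TFAM was 0.29 (SE 0.08, 95% interval 0.11 to 0.46; limma adjusted p = 0.0132). The call was lost without knockdown replicate 3 (log2 fold change 0.28, adjusted p = 0.0525), and it held after a correction for GC content and length (adjusted p = 0.0138).

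TFB1M encodes a methyltransferase that modifies the small ribosomal RNA of mitochondria, while its paralogue TFB2M encodes the initiation factor that opens promoter DNA for POLRMT. TFB1M was at 25.02, 25.74 and 25.11 RPM in scramble and 20.6, 21.6 and 23.1 RPM in knockdown libraries, with no overlap. Its log2 fold change was -0.22 (SE 0.06, 95% interval -0.35 to -0.08; limma adjusted p = 0.015). The call sat at the threshold in some fits: the adjusted p in limma was 0.0508 without scramble replicate 3 and 0.0503 without knockdown replicate 1. The gene TIAM2 overlaps TFB1M over 215 bases on the opposite strand (log2 fold change 0.11; limma adjusted p = 0.325).

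TFB2M was at 17.45, 18.05 and 17.05 RPM in scramble and 15.8, 15.4 and 16.0 RPM in knockdown libraries. The groups did not overlap, but the fold was small and missed the threshold (log2 fold change -0.16, SE 0.06; limma adjusted p = 0.0688). Its unadjusted 95% interval, -0.29 to -0.02, overlaps most of that of TFB1M. TFB2M minus TFB1M within libraries was -0.53 ± 0.03 in scramble and -0.47 ± 0.07 in knockdown (SD, n = 3), with overlap (exact permutation p = 0.3, adjusted p = 0.36). So a call for the one and none for the other does not show that the paralogues differed.

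POLRMT, the single-subunit mitochondrial RNA polymerase, varied more within each group than between them. It was at 42.9, 31.0 and 40.2 RPM in scramble and 29.4, 44.7 and 37.1 RPM in knockdown libraries. The lowest and the highest library were both knockdowns. POLRMT had a log2 fold change of -0.04 (SE 0.15, 95% interval -0.36 to 0.28; limma adjusted p = 0.835). POLRMT minus TFAM within libraries was 0.43 ± 0.38 in scramble and 0.09 ± 0.39 in knockdown (SD, n = 3; exact permutation p = 0.5).

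**Figure D3:**
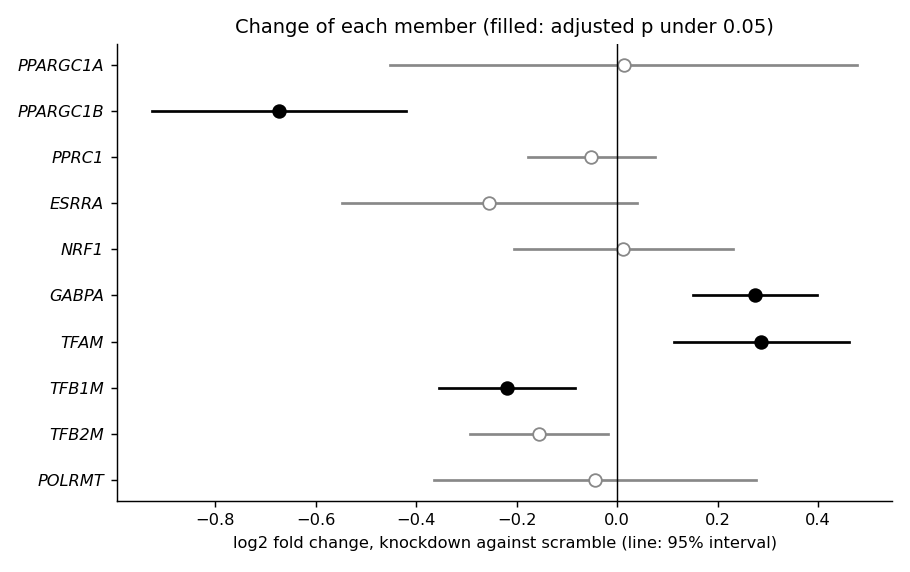
Log2 fold change of each of the 10 genes, knockdown against scramble (horizontal axis), with the 95% interval from limma as a line. Filled points passed an adjusted p of 0.05: PPARGC1B at -0.67 and TFB1M at -0.22 below 0, GABPA at 0.27 and TFAM at 0.29 above it.

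ESRRA and POLRMT have the transcripts of highest GC content among the 10 (63.2% and 66.3%), and those of GABPA and TFAM have the lowest (36.4% and 38.4%). Relative to each gene's mean over the 6 libraries, the median log2 level of the GC-richest of 5 equal groups of tested genes was 0.18, -0.04 and 0.11 in scramble replicates 1, 2 and 3 and -0.18, 0.00 and -0.05 in knockdown replicates 1, 2 and 3. ESRRA deviated by 0.23, -0.09 and 0.24 in scramble and by -0.45, 0.12 and -0.06 in knockdown libraries. POLRMT deviated by 0.21, -0.26 and 0.12 in scramble and by -0.34, 0.27 and 0.00 in knockdown libraries. The signs for ESRRA were those of the GC-rich group in all 6 libraries, with larger sizes. The median of the GC-poorest group was -0.066, -0.011 and -0.0003 in scramble and 0.069, 0.005 and 0.020 in knockdown libraries, higher in every knockdown library. TFAM deviated by -0.305, -0.021 and -0.104 in scramble and by 0.222, 0.042 and 0.168 in knockdown libraries. GABPA deviated by -0.197, -0.166 and -0.048 in scramble and by 0.132, 0.159 and 0.120 in knockdown libraries. After removal of a GC and length trend the log2 fold changes were -0.08 for ESRRA (limma adjusted p = 0.455), 0.14 for POLRMT (0.066), 0.21 for TFAM and 0.19 for GABPA. Scramble replicate 1 and knockdown replicate 1 stood furthest apart in GC-rich genes. Without both of them 2 of the 10 genes were called, PPARGC1B at -0.78 and GABPA, and TFAM was at 0.17 (adjusted p = 0.0832) and TFB1M at -0.19 (0.0544). That fit has 2 libraries per group and was chosen after the data were seen.

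**Figure D4:**
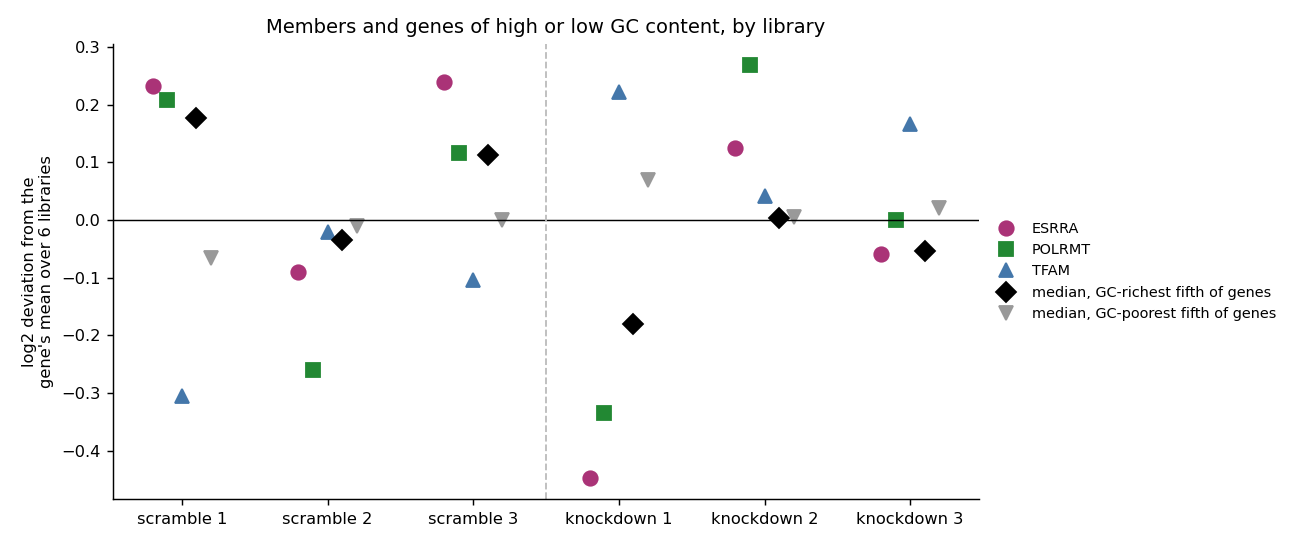
Log2 deviation from the gene's own mean over the 6 libraries (vertical axis) for ESRRA, POLRMT and TFAM, beside the median deviation of the GC-richest and GC-poorest of 5 equal groups of genes, in each library. Knockdown replicate 1 is the lowest library for ESRRA, POLRMT and the GC-rich group and the highest for TFAM.

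The promoters of the 4 mitochondrial transcription genes are shown because all 4 hold the same sequence word, while TFAM rose, TFB1M fell and TFB2M and POLRMT did not pass the test. The word GCGCANGCG, part of the site of NRF1 (N is any base), was searched on both strands in RefSeq promoters of GRCh38.p14. Each ran from 250 bases before to 50 bases after the start of the RefSeq entry. It was found in 7.52% of 35116 promoters and in 5 of the 9 of these genes that had an entry: TFAM, TFB1M, TFB2M, POLRMT and ESRRA. The ETS word CCGGAAG, the core bound by GABP and other ETS factors, was in 10.3% of all promoters and in those of GABPA, TFB1M and POLRMT. Overlapping matches of the NRF1 word, which is nearly its own reverse complement, were found in TFB1M and POLRMT. A match is a description of letters, not a bound site.

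The 250 bases before each start follow, 5′ to 3′ on the gene's strand, with every match to a searched word in capitals. They lie at chr10:58385160-58385409 (plus strand) for TFAM, chr6:155314485-155314734 (minus) for TFB1M, chr1:246566262-246566511 (minus) for TFB2M and chr19:633538-633787 (minus) for POLRMT. Those of GABPA, at chr21:25734722-25734971 (plus), and PPARGC1B, at chr5:149771690-149771939 (plus), are given beside them as the other called genes.
TFAM: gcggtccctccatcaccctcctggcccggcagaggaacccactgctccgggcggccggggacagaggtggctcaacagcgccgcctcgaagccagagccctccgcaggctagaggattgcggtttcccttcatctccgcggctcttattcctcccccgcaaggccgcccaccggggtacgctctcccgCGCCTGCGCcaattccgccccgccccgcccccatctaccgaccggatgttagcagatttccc
TFB1M: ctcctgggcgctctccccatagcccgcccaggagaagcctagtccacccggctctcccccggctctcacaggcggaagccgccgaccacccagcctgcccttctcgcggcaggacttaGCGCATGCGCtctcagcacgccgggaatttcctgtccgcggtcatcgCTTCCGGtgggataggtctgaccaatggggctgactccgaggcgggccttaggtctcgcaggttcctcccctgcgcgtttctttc
TFB2M: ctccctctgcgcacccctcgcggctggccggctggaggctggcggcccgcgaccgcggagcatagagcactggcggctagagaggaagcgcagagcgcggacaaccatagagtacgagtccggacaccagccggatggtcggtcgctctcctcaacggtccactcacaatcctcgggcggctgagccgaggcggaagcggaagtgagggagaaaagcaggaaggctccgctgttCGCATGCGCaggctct
POLRMT: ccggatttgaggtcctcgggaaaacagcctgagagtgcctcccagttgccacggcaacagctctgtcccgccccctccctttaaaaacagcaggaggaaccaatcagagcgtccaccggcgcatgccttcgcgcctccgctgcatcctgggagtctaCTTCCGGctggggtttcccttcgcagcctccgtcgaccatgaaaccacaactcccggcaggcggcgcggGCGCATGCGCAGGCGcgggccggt
GABPA: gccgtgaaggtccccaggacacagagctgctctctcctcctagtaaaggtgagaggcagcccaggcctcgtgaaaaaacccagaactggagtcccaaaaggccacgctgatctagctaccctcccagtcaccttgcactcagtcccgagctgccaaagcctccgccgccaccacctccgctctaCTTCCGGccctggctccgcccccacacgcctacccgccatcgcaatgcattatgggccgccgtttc
PPARGC1B: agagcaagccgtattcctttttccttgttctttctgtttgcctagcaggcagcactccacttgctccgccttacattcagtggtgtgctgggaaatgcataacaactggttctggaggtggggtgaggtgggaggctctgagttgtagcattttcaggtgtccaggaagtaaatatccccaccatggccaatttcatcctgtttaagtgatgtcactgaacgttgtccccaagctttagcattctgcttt

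TFAM, which rose, holds 1 NRF1 word (CGCCTGCGC) 62 bases before its start. TFB1M, which fell, holds the word in both orientations from 132 bases before its start (GCGCATGCG and, shifted by a base, CGCATGCGC) and an ETS word 85 bases before it. TFB2M holds CGCATGCGC 16 bases before its start. POLRMT holds 3 overlapping matches that begin 24, 23 and 18 bases before its own, with an ETS word that begins at 93. The GABPA promoter holds an ETS word of its own, 66 bases before the start, and no NRF1 word. The 300 bases searched for PPARGC1B, with 46% G and C against 62.7 to 68% in the other 5 printed genes, hold none of the words searched. Starts of RefSeq entries (GRCh38.p14) were not matched to those of the counted genes (hg19). The window of PPARGC1B may therefore lie at another start than that of the counted gene, and it says nothing about other starts. The further words searched were TNAAGGTCA for ERR (0.951% of promoters and 0 of these genes), TGACGTCA for CREB (1.85% and 0), AANATGGCG for YY1 (3.19% and 1, PPRC1) and the E-box CACGTG (7.26% and 1, the upstream of the 2 PPARGC1A entries). No match says only that those letters are not in that window.

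Around the coactivators, 34 regulators were examined: kinases, deacetylases, ubiquitin ligases and transcription factors that act on PGC-1 genes or proteins. Of these 10 rose and 12 fell (64.7% called, against 41.0% of all tested genes), with a median log2 fold change of -0.03. The rises were led by FBXW7 (log2 fold change 0.63), a substrate receptor of an SCF ubiquitin ligase, PRKAB2 (0.51), a regulatory subunit of the energy sensor AMPK, and CRTC1 (0.34), a coactivator of CREB. The falls were led by MYC (-0.55), CAMK2D (-0.53), a calcium-dependent kinase, and MYBBP1A (-0.44), a nucleolar protein reported to repress PGC-1 alpha. FBXW7 was at 16.2, 16.0 and 15.3 RPM in scramble and 24.7, 24.8 and 23.9 RPM in knockdown libraries, a clear separation. MYC was at 38.1, 38.9 and 40.7 RPM in scramble and 25.5, 27.8 and 27.5 RPM in knockdown libraries, again with no overlap. Adjusted p-values in limma were 1.67e-05 for FBXW7, 3.03e-05 for PRKAB2, 3.35e-05 for MYC, 8.26e-06 for CAMK2D and 2.22e-05 for MYBBP1A. CRTC1 overlapped between groups and lost its call in 4 of the 6 leave-outs of a library (scramble 2, scramble 3, knockdown 2 or knockdown 3; log2 fold change 0.28 to 0.33, adjusted p 0.0607 to 0.11). PRKAA1, a catalytic subunit of AMPK, and SIRT1, which deacetylates PGC-1 alpha, were picked after their values were seen: PRKAA1 fell to 84.3% of scramble (limma adjusted p = 0.00182) and SIRT1 to 84.6% (0.0125, but 0.0673 without scramble replicate 3).

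Among 25 receptors and factors that PGC-1 proteins can bind or work beside, 23 were tested, of which 6 rose and 5 fell (47.8% called, against 41.0% of all tested genes; median log2 fold change 0.06). ESRRB and FOXO1 had too few reads to be tested. NR3C1, the glucocorticoid receptor, rose from 98.1 ± 4.7 to 128.7 ± 4.6 RPM, and NR1D2, a haem-binding repressor of the circadian clock, from 27.9 ± 1.6 to 37.4 ± 2.0 (SD, n = 3; limma adjusted p = 0.000117 and 0.000376). The oxysterol receptors NR1H3 and NR1H2 fell by 0.58 and 0.40 on the log2 scale, and the orphan receptor NR2F2 fell by 0.33 (limma adjusted p = 0.002, 0.00211 and 0.000234). ESRRG, the relative of ESRRA, had a log2 fold change of 0.71 at about 1 RPM (0.627 ± 0.025 and 1.06 ± 0.29). The ESRRG call (limma adjusted p = 0.0422) was lost on leaving out each library but knockdown replicate 1, with log2 fold changes of 0.57 to 0.73 and adjusted p from 0.0711 to 0.143.

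Genes that copy mitochondrial DNA and keep its nucleoids mostly moved down where they moved: of 24, 10 fell and 1 rose (41.7% lower, against 23.5% of all tested genes), with a median log2 fold change of -0.14. RNASEH1, which removes RNA from RNA-DNA hybrids and is needed for mitochondrial DNA replication, went from 32.6, 35.2 and 33.7 RPM in scramble to 21.6, 22.4 and 21.3 RPM in knockdown libraries. The log2 difference was -0.64 (SE 0.06; limma adjusted p = 1.04e-05), with no overlap. ATAD3A (-0.53) and ATAD3B (-0.44), inner-membrane ATPases tied to nucleoids, also fell (limma adjusted p = 0.00171 and 0.00218), but they are near-identical copies whose reads may be split between them. The helicase TWNK, listed under an older name and picked after its value was seen, fell to 80.7% (limma adjusted p = 0.00604). RRM2B, a p53-inducible ribonucleotide reductase subunit that supplies nucleotides outside S phase, was the one that rose, from 118.8 ± 3.3 to 156.0 ± 4.6 RPM (SD, n = 3; limma adjusted p = 4.79e-05).

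Of 32 genes of mitochondrial transcription, RNA processing and RNA modification, 10 fell and 1 rose (31.2% lower, against 23.5% of all tested genes, and 34.4% called, against 41.0%), with a median log2 fold change of -0.09. MRM1, which methylates mitochondrial ribosomal RNA, was at 6.74 ± 0.48 RPM in scramble and 4.14 ± 0.42 in knockdown (SD, n = 3). Its log2 difference was -0.70 (SE 0.11; limma adjusted p = 0.000532). PTCD2, an RNA-binding pentatricopeptide repeat protein, fell by 0.38 and FASTKD5, which takes part in cutting mitochondrial precursor RNA, rose by 0.26 on the log2 scale (limma adjusted p = 0.00459 and 0.0106). MRPL12, a ribosomal protein that also has been reported to bind POLRMT, ranged from 10.9 to 20.6 RPM in scramble and from 6.37 to 13.7 RPM in knockdown libraries. Its log2 fold change was -0.75 (SE 0.27; limma adjusted p = 0.0455). MRPL12 overlapped between groups and lost its call without scramble 1, scramble 3, knockdown 1 or knockdown 3, at log2 fold changes from -0.80 to -0.46 and adjusted p from 0.0946 to 0.168. Without scramble replicate 3, the count over these 32 genes was 7 (6 lower).

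Nuclear genes known as targets of PGC-1 partners were called about as often as all tested genes: of 24 tested, 8 fell and 2 rose (41.7% called, against 41.0% of all), with a median log2 fold change of -0.11. The falls of ATP5F1B, the catalytic beta subunit of ATP synthase, TOMM34, a cytosolic helper of protein import, and SLC25A4, an ADP/ATP carrier, were larger than that of PPARGC1B. ATP5F1B was at 657.8, 684.8 and 707.2 RPM in scramble and 299.0, 291.1 and 296.2 RPM in knockdown libraries, TOMM34 went to 44.4% and SLC25A4 to 48.2% of scramble (limma adjusted p = 2.11e-08, 1.37e-07 and 7.67e-06). SOD2, the superoxide dismutase of the matrix, rose by 0.28 on the log2 scale (limma adjusted p = 0.000803). UCP3 was under 1 RPM in each library (0.418 ± 0.096 and 0.759 ± 0.048; log2 fold change 0.87, limma adjusted p = 0.0187), and lost its call without scramble 2, scramble 3 or knockdown 2 (0.77 to 0.83, adjusted p 0.0525 to 0.0767). PDK4 and CPT1B, which answer to PGC-1 alpha in muscle, had too few reads to be tested.

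The 13 protein-coding genes of mitochondrial DNA, transcribed with TFAM, TFB2M and POLRMT, had a median log2 fold change of 0.09. In limma 6 were higher and 0 lower (46.2% called, against 41.0% of all tested genes, of which 17.5% were higher and 23.5% lower). MT-ND4L overlaps MT-ND4 in position and MT-ATP8 overlaps MT-ATP6, so the 13 need not be separate RNAs. At an unadjusted p under 0.05 the counts were also 6 and 0, and voom weights gave 6 and 0. A robust variance model and a replicate block gave 4 and 0 each, and an untrended variance model gave 1 and 0. The libraries of the groups did not overlap for 4 of the 13, against 51.1% of all tested genes. The rises were led by MT-ND1 (0.40; limma adjusted p = 6.28e-05), MT-ND6 (0.23) and MT-ND5 (0.23). The count was 1 without scramble replicate 3 and 2 without knockdown replicate 1, and 3 without knockdown replicate 2. MT-ND6 lost its call without scramble 1, scramble 3, knockdown 1 or knockdown 2 (0.16 to 0.24, adjusted p 0.0606 to 0.122) and MT-ND5 without scramble 3 or knockdown 1 (0.19 to 0.20, adjusted p 0.0585 to 0.0769).

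**Figure D5:**
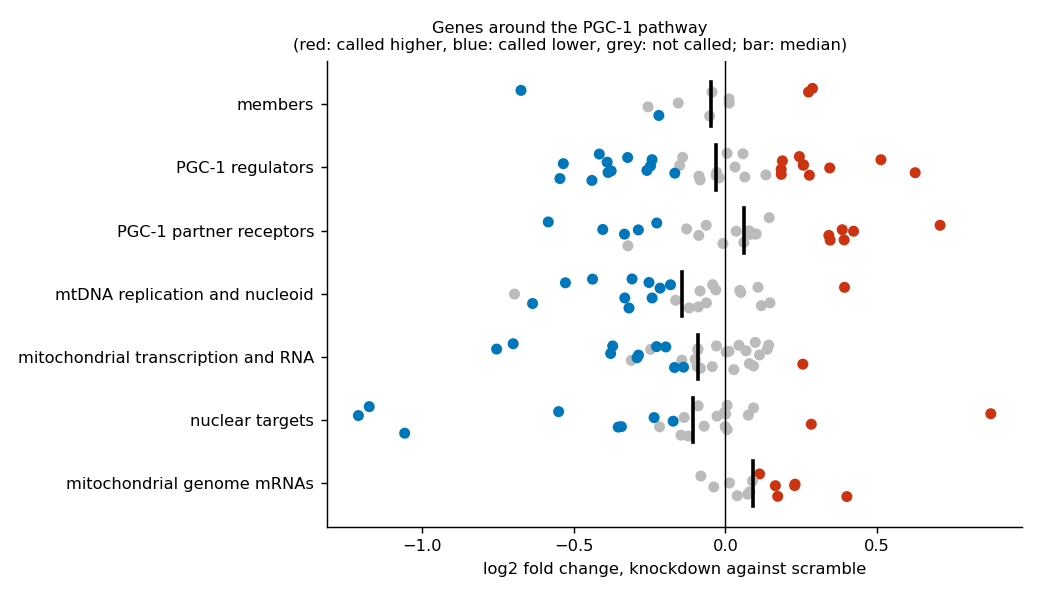
Log2 fold change (horizontal axis) of every tested gene in the 10 genes described first ("members") and in 6 lists around them, with the list median as a bar. Red points were called higher and blue points lower. Calls go both ways among regulators and receptors. Of the calls, 10 of 11 among mtDNA replication genes and 10 of 11 among mitochondrial transcription and RNA genes are lower. The 6 calls among genes of the mitochondrial genome ("mitochondrial genome mRNAs") are higher.

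The genes whose levels over the 6 libraries ran closest to those of PPARGC1B were sought among the 159 other genes of these lists, by the Euclidean distance between log2 values centred on each gene's mean. They were RNASEH1 (distance 0.20), CAMK2D (0.28) and CPT1A (0.31), the outer-membrane enzyme that admits long-chain fatty acids to oxidation. CPT1A was at 57.2, 61.5 and 60.6 RPM in scramble and 42.8, 36.7 and 43.4 RPM in knockdown libraries. With 2 groups of 3, such a distance reflects mostly the size of the group difference.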

How the data were processed

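PolyA RNA of 6 IMR90 ER:Ras libraries was compared, 3 per siRNA group. The authors deposited one table of log2 values. Bowtie2, featureCounts and hg19 are named in the submitters' processing notes, without versions. The normalization and strand setting are not given in the sources used here. In each library the deposited log2 values gave whole reads for 100% of genes (within 0.01 reads) once a 0.5-read offset was undone. RPM is recovered reads per 1000000 of effective library size, so its floor for 3 reads is 0.0596 to 0.134 RPM; this covers counting error only. Values per kb used GENCODE 29 exons (GRCh38), matched by gene ID.

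Limma 3.58.1 (R 4.3.3; lmFit, eBayes with trend, group as the sole term, two-sided) was run on the deposited log2 values of 19048 genes with a mean of at least 10 normalized reads, with Benjamini-Hochberg adjustment over all of them and calls under 0.05. Fold changes carry the 0.5-read offset. The fit was also run on simulated data in which few genes changed, all genes shared one dispersion and no GC trend was present. These data differ in that, so the run does not show how many calls are false here. The genes, lists, motifs and rules were chosen with earlier results of these data known. Besides the 10 genes, up to 3 called rises and 3 called falls per list were named. Libraries were not paired by replicate number in the main fit. Deviations from group means correlated at -0.149, -0.183 and 0.0655 between libraries of the same number. With 3 libraries per group, whose deviations sum to 0 for each gene, these values cannot decide whether libraries were paired. Alternatives were other offsets, filters, scalings, variance models, thinning, a replicate block, a GC and length correction and leaving out libraries. RefSeq had no promoter entry used here for NRF1.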

Additional observations from a re-analysis of the deposited data

How the results depend on the processing

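PPARGC1B and GABPA kept direction and call in all 21 other fits. TFAM and TFB1M kept direction in all 21. TFAM lost its call with an untrended variance model (limma adjusted p = 0.061), and TFB1M did under quantile normalization (log2 fold change of TFB1M -0.17, adjusted p = 0.05004). ESRRA was called without a filter on low reads (limma adjusted p = 0.00511), at the same log2 fold change as in the main fit (-0.2547). The variance model of that fit was drawn from all 57819 genes, most of them below the read minimum. Of the 10 genes 3 to 5 were called without single libraries, and 2 without both libraries numbered 1, a fit with fewer samples. Without those 2 libraries 1 gene of the mitochondrial genome was called, as with an untrended variance model. With a library left out, calls were 1 to 5 for genes of the mitochondrial genome and 7 to 11 for mitochondrial transcription and RNA genes. Those for the 34 regulators were 15 to 19. The cause was not tested.

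Among the 10 genes, direction turned for 4, none of them called. The log2 fold change of PPARGC1A was -0.012 with voom, -0.093 after the GC and length correction and -0.10 without both libraries numbered 1. Single libraries left out gave -0.13 to 0.22. The log2 fold change of PPRC1 was 0.0049 after that correction, and -0.088 to 0.0061 without single libraries. The log2 fold change of NRF1 was -0.11 without both libraries numbered 1, and -0.085 to 0.11 without single libraries. The log2 fold change of POLRMT was 0.0019 under quantile normalization, 0.14 after the GC and length correction and 0.21 without both libraries numbered 1, and -0.19 to 0.11 without single libraries. With the replicate number as a block, 6454 of all genes and 4 of the 10 were called, and the log2 fold change of PPARGC1B was -0.67. The number of genes changed was 5803 to 7330 without single libraries. Without a filter it was 10220 of 57819 (5542 higher), against 7805 of 19048 (3325 higher). The median log2 fold change was 0.604 without a filter, against -0.0394 in the main fit. A gene without reads takes its value from the read offset and the library size, and every knockdown library was smaller than every scramble library. Such a gene is therefore higher in knockdown by construction, and the 2 counts of higher genes cannot be compared. The part of this in the calls was not tested. Depth limits PPARGC1A, ESRRG and UCP3, with 26, 16 and 11 reads in their lowest libraries.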
